A study of Homo sapiens with 6 samples.

Results

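The genes described here encode the subunits and assembly factors of respiratory complexes II to V and cytochrome c in MDA-MB-231 cells treated with the peptide PDBAG1. They were chosen by gene symbol alone (SDHA to SDHD with their assembly factors, the UQCR, UQCC, COX, ATP5 and ATPAF series, CYC1, CYCS, SURF1, SCO1, SCO2, BCS1L, LYRM7 and TTC19), which took 73 of the 17631 genes listed. Of these, 45 are subunits, 24 are assembly factors, 1 is a supercomplex factor (COX7A2L), 1 is the ATPase inhibitor ATP5IF1, and 2 are a read-through gene (ATP5MF-PTCD1) and a near copy of another gene (ATP5MGL). MDA-MB-231 is an established human line of triple-negative breast cancer, and the labels also give breast cancer tissue as the source. PDBAG1 is a peptide taken from the protein GPD1 and joined to a cell-penetrating sequence, which the study describes as acting on the mitochondrial protein C1QBP. The cells received vehicle (3 libraries) or 30 µM PDBAG1 (3 libraries) for 24 h, and mRNA libraries were sequenced. What the vehicle held was not given, and nothing says that the 3 libraries of a group came from separate cultures, so p-values measure the spread between these libraries.

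Values were deposited as TPM, a unit that divides reads by transcript length and gives all libraries an equal total. It keeps no depth, so neither the depth of a library nor its counting error is known. Between 12392 and 12611 genes reached 1 TPM in a library, and its top 10 genes held 8.03% to 8.75% of the sum. The SD of log2 differences between libraries was 0.142 to 0.175 within groups and 0.278 to 0.296 between groups. Markers of a mesenchymal triple-negative line were present (VIM at 4174 to 5942 TPM), and ESR1, PGR, EPCAM, CDH1 and GATA3 were at 5.78 TPM or less in each library, with ERBB2 at 23.56 to 25.41 TPM. The summed TPM of 3 endothelial markers was 4.11 to 4.40 in vehicle and 8.42 to 9.60 in PDBAG1 libraries, nearly all of it PECAM1, with VWF at 0.09 TPM or less. Leukocyte markers summed to 8.90 to 11.0 TPM over both groups, adipocyte markers to at most 1.62 and striated muscle markers to at most 0.56. These markers were read in libraries of a cell line, and what their levels reflect was not tested.

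The respiratory chain passes electrons to oxygen through the inner mitochondrial membrane. Complex II (succinate dehydrogenase) feeds electrons from the citric acid cycle to ubiquinone, complex III hands them to cytochrome c, complex IV (cytochrome c oxidase) reduces oxygen, and complex V (ATP synthase) makes ATP from the proton gradient that complexes III and IV help to build. Complexes III, IV and V join nuclear-encoded subunits with subunits made from mitochondrial DNA, while complex II is wholly nuclear-encoded. Assembly factors insert haem, copper, flavin and iron-sulphur groups or hold unfinished modules, and are not part of the finished enzymes. Subunits made from mitochondrial DNA and the tissue isoforms COX4I2, COX6A2 and COX8C were not analysed here.

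PDBAG1-treated cells held lower levels of many of these transcripts, each by a small amount. Of the 73 genes, 70 reached 1 TPM in at least 3 libraries and were tested with limma on log2(TPM + 1). At a Benjamini-Hochberg adjusted p under 0.05 over all 12582 genes tested, 28 of the 70 were lower in PDBAG1 libraries (40.0%), none was higher, and 42 did not pass. Among all genes tested 15.9% were lower and 21.7% were higher at the same threshold (37.6% in either direction). A log2 difference below 0 was found for 62 of the 70, against 44.1% of all genes. The median log2 difference of the tested members was -0.11, compared with 0.03 for all genes, and single members lay between -0.46 (COX7B2) and 0.13 (COX6B2). On log2(TPM + 1) none reached 1.5-fold, the limit used in the study. It was passed by 0.477% of all genes as lower and by 2.86% as higher. That scale understates the change of low genes. With 0.1 added in place of 1, COX7B2 was at -0.7, past that limit (limma adjusted p = 0.0222). Its mean was 2.06 TPM in vehicle and 1.2 TPM in PDBAG1 libraries. In these bulk samples of a cell line, fewer cells in a given state and less RNA per cell cannot be told apart.

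The 6 libraries showed the same direction when the 73 genes were summed. Their TPM came to 17081, 17895 and 17695 in the vehicle libraries and 16772, 16358 and 15998 in the PDBAG1 libraries, which is 1.71%, 1.79% and 1.77% against 1.68%, 1.64% and 1.60% of each library. The groups did not overlap, although vehicle replicate 1 stood closer to PDBAG1 replicate 1 than to the other vehicle libraries. Gene by gene, the groups did not overlap for 36 tested members, with PDBAG1 lower for 35 and higher for 1 (UQCRC1), where 20.2% of all genes tested were separate with PDBAG1 lower and 27.2% with PDBAG1 higher. The remaining 34 overlapped. UQCRHL (0 to 1.39 TPM over the 6 libraries), COX7A1 (0 to 0.68 TPM) and ATP5MGL (0.38 to 1.13 TPM) were too low to be tested.

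**Figure D1:**
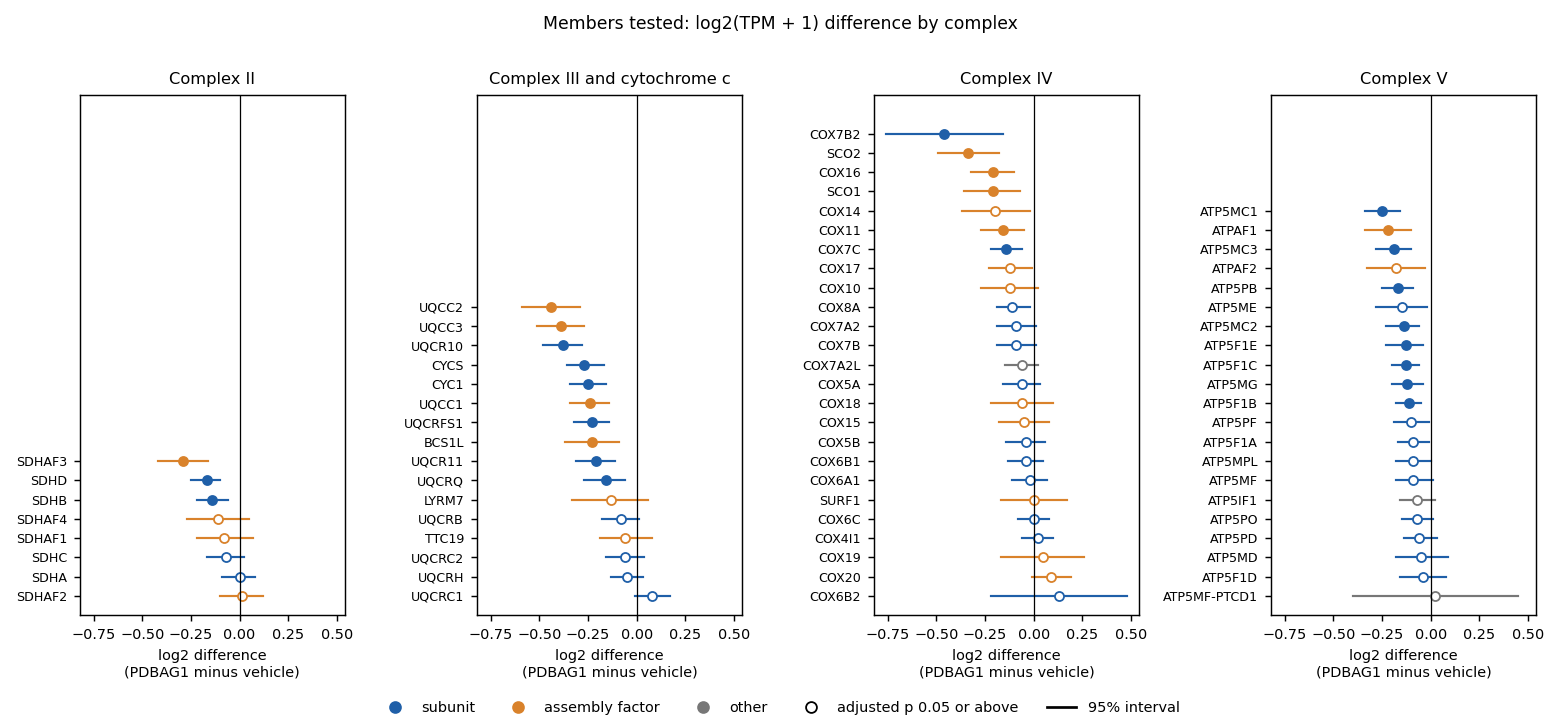
Log2 difference of TPM + 1 (PDBAG1 minus vehicle, n = 3 libraries each) for the 70 tested members by complex, with 95% intervals. Filled points passed the adjusted p of 0.05. UQCC2, UQCC3, UQCR10 and CYCS have intervals well below 0, and most complex IV subunits lie near 0.

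Transcript length moved with the difference over all genes. Spearman's rho between log2 difference and transcript length was 0.21 over 12433 genes and -0.05 over the 70 tested members, whose median transcript length was 1237.5 bases against 3280 for all genes, and genes are not independent replicates. Among genes of 500 to below 1000 bases 33.4% were lower, with 7 of 19 members, and among those of 1000 to below 2000 bases 25.0% were lower, with 12 of 22 members. Below 500 bases 25.0% of genes and 0 of 7 members were lower, from 2000 to below 4000 bases 16.7% and 6 of 13 members, and from 4000 bases 8.55% and 3 of 9 members. Once trends with transcript length and GC content had been taken out (trend removal), 15 members were lower, 6 were higher (ATP5PD, COX20, COX4I1, COX6A1, COX6C and UQCRH), and the member median was -0.03. That is 21.4% lower and 8.57% higher, where 15.4% of all genes were lower and 23.3% higher under the same setting. From below 0 to above it 23 members turned, and 2 turned the other way. Of the 15 lower members, 14 were among the 28 called on the values as deposited, and the other was ATP5F1A. Scaling also set the split over all genes. Calls were lower for 42.2% of the genes called as deposited, 52.8% after median-of-ratios scaling and 53.3% after quantile normalization. Of the 28 lower members, 12 passed in each of 13 alternatives: UQCC1, UQCC2, UQCC3, UQCR10, UQCR11, UQCRFS1, CYC1, CYCS, SCO2, ATP5PB, ATP5MC1 and ATPAF1.

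Subunits and assembly factors were called in like proportions. Of 43 tested subunits 18 were lower (41.9%), with a median log2 difference of -0.09, and of 24 assembly factors 10 were lower (41.7%), with a median of -0.14. Relative to the vehicle mean of each gene, the median deviation of the subunits was -0.04, 0.02 and 0.00 in the vehicle libraries and -0.08, -0.11 and -0.12 in the PDBAG1 libraries. For the assembly factors it was 0.00, 0.00 and -0.02 against -0.17, -0.18 and -0.13, so neither class overlapped between groups. The subunit transcripts were the more abundant, with a median vehicle level of 281 TPM against 40.1 TPM. After trend removal the subunit median was 0.00 with 8 of 43 lower and 5 higher. The assembly factor median was -0.10 with 7 of 24 lower and 1 higher. Under the same setting 15.4% of all genes were lower and 23.3% higher. The difference between the classes was not tested.

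**Figure D2:**
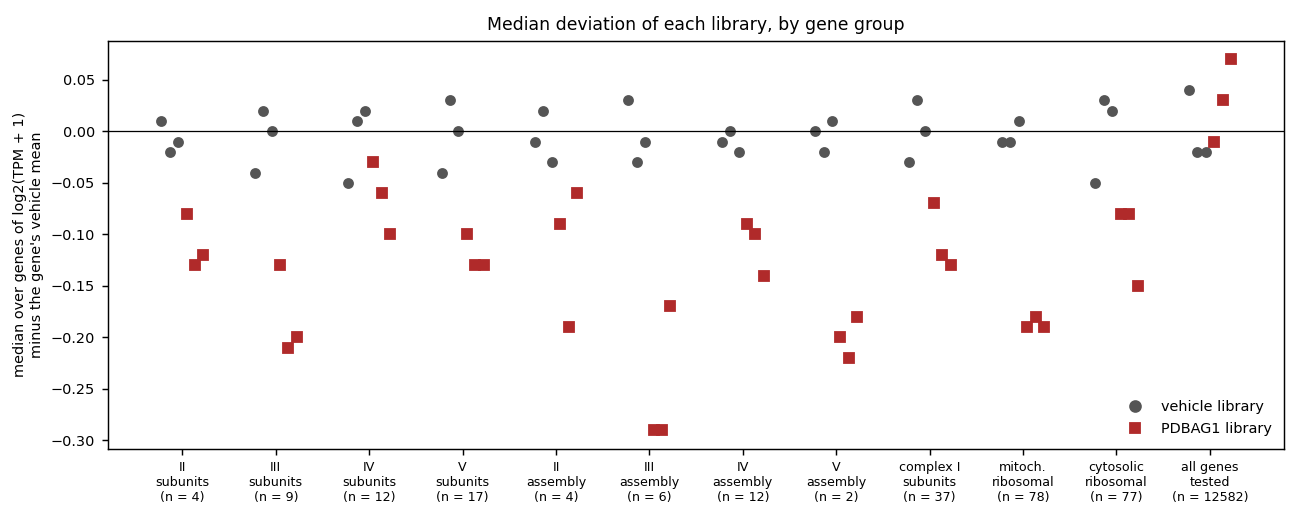
Median deviation of each library from the vehicle mean of each gene, in log2(TPM + 1), for the subunits and assembly factors of each complex and for 4 comparison sets. Circles are vehicle and squares PDBAG1 libraries. The PDBAG1 squares lie below the vehicle circles in each set of complex II, III and V genes. They also do so for the complex IV assembly factors, the complex I subunits and the mitochondrial and cytosolic ribosomal sets. The complex IV subunits overlap, and all genes tested show no such shift.

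Complex II was lower for its iron-sulphur subunit and one of its membrane anchors. SDHD, an anchor that binds ubiquinone and the most abundant complex II transcript, was at 280.67, 283.47 and 279.93 TPM in vehicle and 246.85, 250.78 and 250.15 TPM in PDBAG1 libraries. The groups were far apart relative to their spread, with a log2 difference of -0.17 ± 0.04 (SE, limma adjusted p = 0.00158). SDHB, the iron-sulphur subunit, was at 248.71, 251.35 and 238.00 TPM against 227.95, 222.88 and 218.17 TPM (-0.14 ± 0.04, limma adjusted p = 0.0114). Both calls ended once the length and GC trends were removed (SDHD at -0.04 and SDHB at -0.00), and that of SDHB also without vehicle replicate 2 (-0.13). SDHA, the flavoprotein that oxidises succinate, was nearly level between groups at -0.00 (95% interval -0.09 to 0.08), and the other anchor SDHC was at -0.07 (-0.17 to 0.02).

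Of the 4 complex II assembly factors only SDHAF3 passed the test. SDHAF3 and SDHAF1 protect or load the iron-sulphur groups of SDHB, SDHAF2 attaches flavin to SDHA, and SDHAF4 assists the joining of SDHA to SDHB. SDHAF3 was at 55.27, 57.66 and 53.04 TPM in vehicle and 41.38, 45.54 and 48.18 TPM in PDBAG1 libraries, with a log2 difference of -0.29 ± 0.06 (limma adjusted p = 0.00193) that became -0.14 and was no longer called after trend removal. The highest PDBAG1 library was below the lowest vehicle library. SDHAF2, the most abundant of these by TPM, was at 72.98, 77.31 and 73.63 against 78.68, 76.04 and 71.04 TPM, and its groups overlapped (0.01, 95% interval -0.10 to 0.12). SDHAF1 was at -0.08 (-0.22 to 0.07) and SDHAF4 at -0.11 (-0.27 to 0.05).

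Complex III and cytochrome c held many of the larger differences. Of 15 tested complex III genes 9 were lower (60.0%, against 15.9% of all genes tested), with a median log2 difference of -0.21. These were 5 of 9 subunits and 4 of 6 assembly factors. After trend removal 8 of the 15 were lower and 1 (UQCRH) higher, with a median of -0.15, where 15.4% of all genes were lower and 23.3% higher. UQCR10, a small subunit of the complex, was at 194.72, 214.34 and 202.01 TPM in vehicle and 165.25, 150.35 and 153.02 TPM in PDBAG1 libraries. Every PDBAG1 library was well below every vehicle library, and the log2 difference was -0.38 ± 0.05 (limma adjusted p = 4.12e-05), the lowest p among the members. It was -0.25 and still called after trend removal.

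CYC1, the cytochrome c1 subunit that carries the haem from which cytochrome c is reduced, was the most abundant complex III transcript. It stood at 518.65, 536.15 and 550.87 TPM in vehicle and 473.39, 442.34 and 435.58 TPM in PDBAG1 libraries (-0.25 ± 0.04, limma adjusted p = 0.000321). UQCRFS1, the Rieske iron-sulphur protein, was at 113.20, 116.17 and 114.20 against 96.98, 95.17 and 99.43 TPM (-0.23 ± 0.04, limma adjusted p = 0.000634). Neither gene overlapped between groups. The small subunits UQCR11 (-0.21, adjusted p = 0.00276) and UQCRQ (-0.16, adjusted p = 0.0169) were lower too, of which UQCRQ lost its call in 5 of the 13 alternatives, among them leaving out vehicle replicate 2, vehicle replicate 3 or PDBAG1 replicate 2.

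The large core proteins of complex III did not pass the test. UQCRC2 was at 165.39, 161.95 and 156.99 TPM in vehicle and 147.76, 165.92 and 151.40 TPM in PDBAG1 libraries, and the groups overlapped (-0.06, 95% interval -0.16 to 0.04). UQCRC1 was at 211.62, 204.00 and 205.27 against 228.73, 215.53 and 212.24 TPM. Its PDBAG1 libraries all lay above the vehicle libraries, although it did not pass the test (0.08 ± 0.04, limma adjusted p = 0.145). The hinge protein UQCRH was at -0.05 (-0.13 to 0.03) and the ubiquinone-binding protein UQCRB at -0.08 (-0.18 to 0.01). UQCRH and UQCRHL are near copies, and how reads were split between them is not known.

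Among the assembly factors of complex III, lower calls in the UQCC series were limited to UQCC1, UQCC2 and UQCC3. UQCC4, UQCC5 and UQCC6, which carry older symbols outside the symbol list, were at -0.15, 0.01 and -0.16. Their groups overlapped and they did not pass. UQCC1, UQCC2 and UQCC3, which act on the synthesis and early assembly of the mtDNA-encoded cytochrome b, were all lower, with a median log2 difference of -0.39 that stayed at -0.37 after trend removal with the 3 calls kept. UQCC2 was at 51.38, 64.33 and 57.19 TPM in vehicle and at 42.93, 41.56 and 41.77 TPM in PDBAG1 libraries (-0.44 ± 0.07, limma adjusted p = 0.000245). The vehicle libraries varied more than the PDBAG1 libraries, and the groups did not overlap. UQCC3 was at 47.65, 46.81 and 44.74 against 36.91, 33.75 and 35.03 TPM (-0.39 ± 0.05, limma adjusted p = 0.000106). UQCC1, the most abundant of the factors, was at 90.31, 84.72 and 92.44 against 74.49, 75.53 and 75.98 TPM (-0.24 ± 0.05, limma adjusted p = 0.0013). On GRCh38, UQCC1 lies at chr20:35302566-35412031 on the minus strand, UQCC2 at chr6:33694293-33711727 on the minus strand, and UQCC3 at chr11:62670273-62673686 on the plus strand, where its exons overlap those of LBHD1. LBHD1 itself was at 5.92 to 6.44 TPM in vehicle and 5.94 to 8.28 TPM in PDBAG1 libraries.

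The factors that handle the Rieske protein showed smaller differences. BCS1L, the ATPase that moves the folded Rieske protein through the inner membrane, was at 40.59, 41.94 and 37.58 TPM in vehicle and 33.91, 31.42 and 36.75 TPM in PDBAG1 libraries (-0.23 ± 0.07, limma adjusted p = 0.014), a call lost without vehicle replicate 2 or without PDBAG1 replicate 2. Its groups were separate by less than 1 TPM. LYRM7, which holds the Rieske protein before insertion, was at -0.13 (95% interval -0.33 to 0.06), and TTC19, which clears Rieske fragments, was at -0.06 (-0.19 to 0.08).

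CYCS, the soluble cytochrome c that carries electrons from complex III to complex IV, was at 114.93, 110.22 and 111.75 TPM in vehicle and 89.75, 94.19 and 95.66 TPM in PDBAG1 libraries. The groups were separate, and the log2 difference of -0.27 ± 0.04 (limma adjusted p = 0.000363) was the same after trend removal. HCCS, which attaches haem to both cytochrome c and cytochrome c1, was at 28.99, 27.59 and 28.36 against 23.12, 22.97 and 23.42 TPM (-0.28, limma adjusted p = 0.00169).

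**Figure D3:**
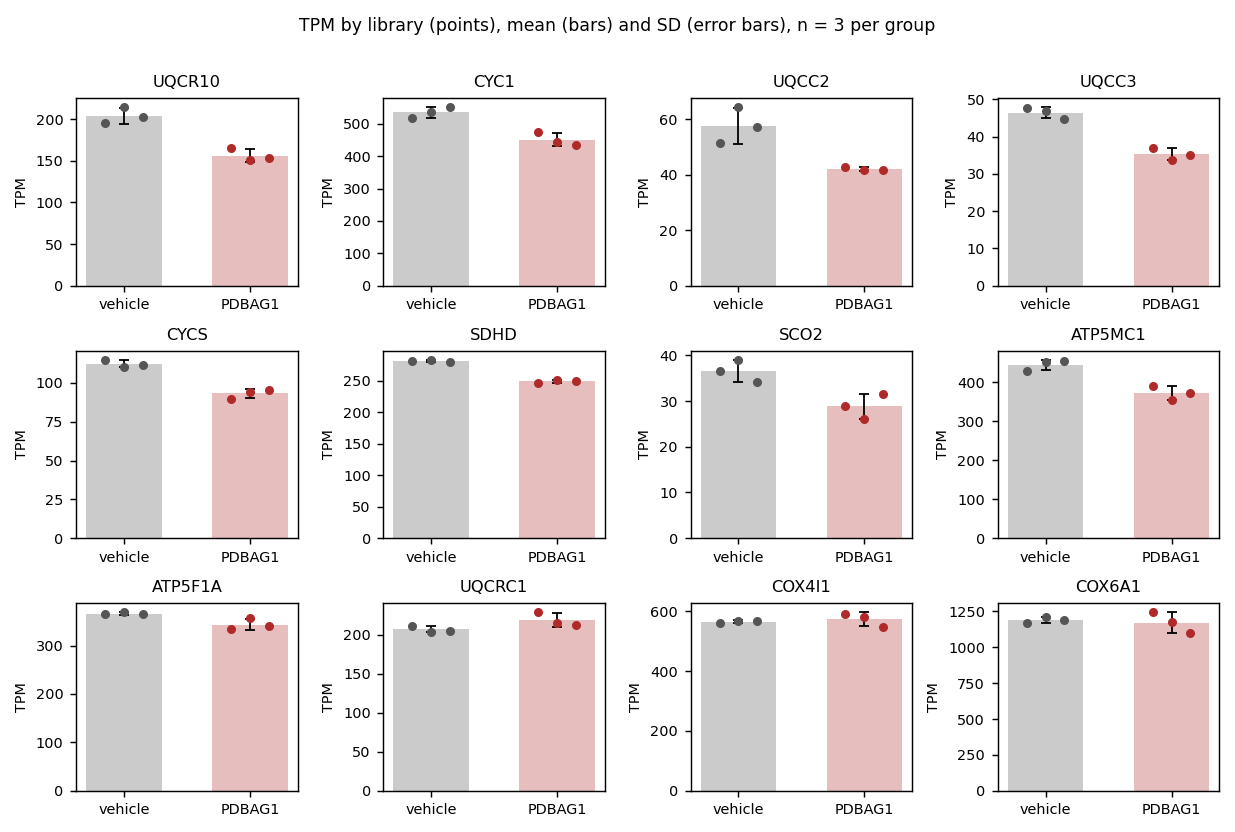
TPM in each of the 6 libraries for 12 members, with bars at the group mean and error bars of 1 SD (n = 3 libraries per group). UQCR10, CYC1, UQCC2, UQCC3, CYCS, SDHD, SCO2 and ATP5MC1 are lower in each PDBAG1 library than in any vehicle library, while COX4I1 and COX6A1 overlap.

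Promoter sequence is shown because NRF1, a factor known to drive many nuclear genes of the respiratory chain, binds a defined core. Windows from 250 bases before to 50 bases after the gene start (RefSeq, GRCh38.p14) were matched for 58 of the 70 tested members, UQCC3 and CYC1 not among them. The core, spelled GCGC, an A, any base and GCGC again, was sought on both strands. It was in 27.6% of these windows, in 11.9% of those of all genes tested, and in 9.49% of all 13951 windows. By complex it was in 4 of 7 windows of complex II, 6 of 12 of complex III and 2 of 22 of complex IV. For complex V the count was void, as 76.2% of its tested genes had a window, under the 80% set as a minimum. Of the 16 members with the core 8 were lower, and of the 42 without it 14 were lower, a comparison that was not tested. Of all genes tested 15.9% were lower, and that share was not split by presence of the core. The core was also more frequent in windows of complex III, where 9 of 15 tested genes were lower, than of complex IV, where 6 of 25 were. These counts therefore cannot separate the core from the complex. The core of the hypoxia response element, ACGTG on either strand, was in 31.0% of the members' windows and 26.8% of those of genes tested. A match describes letters in a window and is no evidence of binding. The stretches below give 120 bases upstream of the gene, with the letters of the core in capitals. Their genes were chosen as examples and do not mirror the counts above. UQCC1, UQCC2, UQCRFS1, UQCR11 and SDHD were lower and hold the core, SDHA holds it and was level between groups, CYCS was lower without it, and COX6A1, the most abundant complex IV transcript, was neither lower nor holds it. All are written 5′ to 3′ on the strand of the gene. They lie at chr20:35412032-35412151 (UQCC1, minus), chr6:33711728-33711847 (UQCC2, minus), chr19:29213152-29213271 (UQCRFS1, minus), chr19:1605474-1605593 (UQCR11, minus), chr11:112086704-112086823 (SDHD, plus), chr5:218183-218302 (SDHA, plus), chr7:25125261-25125380 (CYCS, minus) and chr12:120437970-120438089 (COX6A1, plus).
UQCC1: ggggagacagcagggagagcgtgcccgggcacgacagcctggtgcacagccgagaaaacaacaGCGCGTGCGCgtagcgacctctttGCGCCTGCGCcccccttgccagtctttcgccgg
UQCC2: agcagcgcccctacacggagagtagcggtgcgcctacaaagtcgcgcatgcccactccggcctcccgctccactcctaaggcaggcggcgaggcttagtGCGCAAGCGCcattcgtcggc
UQCRFS1: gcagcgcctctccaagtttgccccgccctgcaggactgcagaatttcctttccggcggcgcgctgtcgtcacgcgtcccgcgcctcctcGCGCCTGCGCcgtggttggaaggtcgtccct
UQCR11: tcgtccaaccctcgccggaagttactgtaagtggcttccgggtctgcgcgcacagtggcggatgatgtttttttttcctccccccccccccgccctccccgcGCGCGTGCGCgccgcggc
SDHD: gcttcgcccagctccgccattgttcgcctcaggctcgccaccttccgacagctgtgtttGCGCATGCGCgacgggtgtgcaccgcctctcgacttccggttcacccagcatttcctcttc
SDHA: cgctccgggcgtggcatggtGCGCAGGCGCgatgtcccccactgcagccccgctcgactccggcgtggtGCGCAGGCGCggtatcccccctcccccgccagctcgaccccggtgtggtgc
CYCS: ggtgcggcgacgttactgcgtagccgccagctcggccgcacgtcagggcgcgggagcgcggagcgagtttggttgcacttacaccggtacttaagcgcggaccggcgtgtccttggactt
COX6A1: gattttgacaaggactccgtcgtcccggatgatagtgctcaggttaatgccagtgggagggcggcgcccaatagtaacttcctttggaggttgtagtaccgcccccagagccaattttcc

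Complex IV subunits were called lower about as often as all genes tested. Of 12 tested subunits 2 were lower (16.7%, near the 15.9% of all genes), with a median log2 difference of -0.05, and of all 25 tested complex IV genes 6 were lower, with a median of -0.06. Without vehicle replicate 2 only 3 of the 25 were lower. After trend removal 2 of the 25 were lower, 4 were higher (COX20, COX4I1, COX6A1 and COX6C), and the subunit median was 0.07. Of all genes 15.4% were lower and 23.3% higher under that setting, so neither count exceeds the share of all genes. No test compared the complexes with each other.

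COX4I1, the regulatory subunit that is present in most tissues, was at 559.74, 567.75 and 567.43 TPM in vehicle and 590.97, 581.70 and 546.77 TPM in PDBAG1 libraries. The PDBAG1 libraries lay on both sides of the vehicle libraries (0.02 ± 0.04, 95% interval -0.06 to 0.10, limma adjusted p = 0.706). The difference was -0.02 under median-of-ratios scaling and 0.12 after trend removal, where it was called higher. COX6A1, the most abundant of all members, was at 1166.98, 1209.30 and 1193.36 against 1244.60, 1173.13 and 1100.95 TPM, again with overlap (-0.02, 95% interval -0.11 to 0.07), and was at 0.09 and called higher after trend removal. COX6C was at 0.00 (-0.08 to 0.08), COX5A, which binds the regulatory subunit, at -0.06 (-0.16 to 0.03), and COX5B at -0.04 (-0.14 to 0.06). COX6B1, which links the monomers of the enzyme, was at -0.04 (-0.13 to 0.05) and COX8A at -0.11 (-0.19 to -0.02, limma adjusted p = 0.0529).

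COX7C was the only abundant complex IV subunit that passed. It was at 721.22, 753.33 and 755.13 TPM in vehicle and 682.44, 691.64 and 644.65 TPM in PDBAG1 libraries without overlap (-0.14 ± 0.04, limma adjusted p = 0.00833), and was at 0.04 and not called after trend removal. COX7B2, an isoform of COX7B with a restricted tissue pattern, was at 2.43, 2.36 and 1.39 against 1.22, 1.24 and 1.13 TPM (-0.46 ± 0.14, limma adjusted p = 0.0196). That call rests on 2 vehicle libraries, since the third lay near the PDBAG1 level, and it was lost without vehicle replicate 1 (-0.37), without vehicle replicate 2 (-0.38) and after trend removal (-0.27). The ubiquitous COX7B was at 70.89, 73.74 and 75.79 against 66.84, 70.61 and 69.04 TPM (-0.09, 95% interval -0.19 to 0.01).

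Isoform shares gave no difference that a test of 3 against 3 libraries could call. An exact permutation test of this size cannot go below p = 0.1 (2-sided), and 6 shares were tested. COX7B2 made up 3.31%, 3.10% and 1.80% of COX7B and COX7B2 in vehicle and 1.79%, 1.73% and 1.61% in PDBAG1 libraries (exact permutation p = 0.1, adjusted p = 0.2). The third vehicle library all but touched the PDBAG1 range. COX6B2, an isoform known from testis, was 0.151%, 0.0937% and 0.0978% of COX6B1 and COX6B2 against 0.121%, 0.0920% and 0.213% (exact permutation p = 0.7, adjusted p = 0.84). COX7A1, the heart and muscle isoform, was 0% to 0.151% of COX7A1 and COX7A2 over the 6 libraries (exact permutation p = 0.7, adjusted p = 0.84). COX7A2 itself was at -0.09 (95% interval -0.19 to 0.01), and the related supercomplex factor COX7A2L at -0.06 (-0.15 to 0.02).

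**Figure D4:**
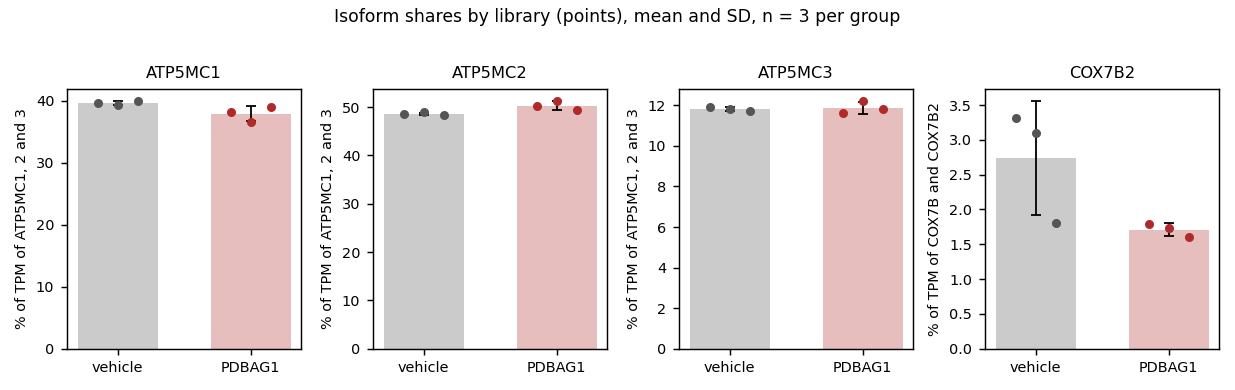
Share of the summed TPM of its isoform set, in per cent, for the 3 genes of the ATP synthase c subunit and for COX7B2 in each library, with bars at the mean and error bars of 1 SD (n = 3 libraries per group). The ATP5MC1 share is lower and the ATP5MC2 share higher in each PDBAG1 library, ATP5MC3 overlaps, and the third vehicle library of COX7B2 sits next to the PDBAG1 libraries.

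Among the 12 complex IV assembly factors 4 were lower (33.3%, against 15.9% of all genes tested), 3 of them in copper delivery. Without vehicle replicate 2 there were 2 and 1. After trend removal 2 of the 12 were lower (SCO1 and SCO2) and 1 was higher (COX20). Under that setting 15.4% of all genes were lower and 23.3% higher. SCO2, a copper chaperone for MT-CO2, was at 36.55, 39.04 and 34.22 TPM in vehicle and 28.97, 26.07 and 31.51 TPM in PDBAG1 libraries (-0.34 ± 0.07, limma adjusted p = 0.0026), with the same value after trend removal. Its exons overlap those of NCAPH2, which was at -0.09 (limma adjusted p = 0.243). SCO1, its partner, was at 15.47, 15.02 and 14.95 against 12.49, 12.91 and 13.42 TPM (-0.21 ± 0.07, limma adjusted p = 0.0238). COX11, which delivers copper to MT-CO1, was at -0.16 (limma adjusted p = 0.0268). SCO1 lost its call in 6 of the 13 alternatives, including the removal of any vehicle library, and COX11 lost its call in 4, among them leaving out vehicle replicate 2 or PDBAG1 replicate 3. COX17, the copper carrier upstream of them and the most abundant assembly factor, was at 119.91, 117.92 and 130.75 against 107.35, 118.68 and 112.58 TPM with overlap (-0.12, limma adjusted p = 0.0817), and was at 0.05 after trend removal. COX19 was at 0.05 (-0.17 to 0.26).

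The other complex IV assembly steps held 1 lower gene. COX16, which assists MT-CO2 maturation, was at 73.60, 79.67 and 78.33 TPM in vehicle and 64.60, 69.06 and 66.14 TPM in PDBAG1 libraries (-0.21 ± 0.05, limma adjusted p = 0.00452), and it was at -0.09 and not called after trend removal. COX14 (-0.20, limma adjusted p = 0.0711), COX18 (-0.06, limma adjusted p = 0.57) and COX20 (0.09, limma adjusted p = 0.156), which act on MT-CO1 or MT-CO2, did not pass. The haem A enzymes COX10 (-0.12, 95% interval -0.27 to 0.02) and COX15 (-0.05, -0.18 to 0.08) and the haem insertion factor SURF1 (-0.00, -0.17 to 0.17) did not pass either.

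Complex V showed small differences, in one direction on the values as deposited. All 17 subunits had a log2 difference below 0, between -0.25 and -0.04, with a median of -0.11. Of them 8 passed the test (47.1%, against 15.9% of all genes lower). Without vehicle replicate 2 there were 5, and after trend removal 3 were lower and 1 (ATP5PD) higher, with a median of -0.03. Under that setting 15.4% of all genes were lower and 23.3% higher. ATP5F1C, ATP5PD, ATP5PF, ATP5PO, ATP5MF, ATP5MG, ATP5MPL and ATP5MD then lay above 0. ATP5F1D and ATP5MD also turned above 0 with certain libraries left out. ATP5F1B, the catalytic beta subunit of the F1 head and the most abundant complex V transcript, was at 924.17, 924.55 and 924.37 TPM in vehicle and 858.70, 855.39 and 847.79 TPM in PDBAG1 libraries. Both groups were tight and did not overlap (-0.11 ± 0.03, limma adjusted p = 0.0102), although the difference was -0.06 and not called after trend removal. ATP5F1A, the alpha subunit of the head, was at 364.64, 368.76 and 364.32 against 333.41, 355.98 and 340.12 TPM. It was separate between groups but did not pass as deposited (-0.09 ± 0.04, limma adjusted p = 0.0629), and it passed after trend removal (-0.11). ATP5F1C and ATP5F1E of the central stalk were lower (both -0.13, limma adjusted p = 0.0083 and 0.0298), and ATP5F1D was not called (-0.04, adjusted p = 0.589). Both calls ended after trend removal, and that of ATP5F1E also without vehicle replicate 2, vehicle replicate 3 or PDBAG1 replicate 2.

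The 3 genes of the c ring, which encode the same mature rotor protein behind different import sequences, were all lower. ATP5MC1 was at 428.54, 450.45 and 452.69 TPM in vehicle and 390.30, 354.26 and 372.38 TPM in PDBAG1 libraries (-0.25 ± 0.04, limma adjusted p = 0.000363). ATP5MC2 was at 525.56, 559.86 and 549.80 against 514.15, 495.90 and 471.85 TPM (-0.14 ± 0.04, limma adjusted p = 0.0134), and ATP5MC3 at 128.94, 135.70 and 133.04 against 118.36, 117.87 and 112.85 TPM (-0.19 ± 0.04, limma adjusted p = 0.00355). None of them overlapped between groups. After trend removal only ATP5MC1 remained called, and ATP5MC2 also lost its call without vehicle replicate 2 (-0.12) or vehicle replicate 3 (-0.14). Of the 3 genes' summed TPM, ATP5MC1 gave 39.6%, 39.3% and 39.9% in vehicle and 38.2%, 36.6% and 38.9% in PDBAG1 libraries, a difference of -1.69 percentage points (exact permutation p = 0.1, adjusted p = 0.2). The ATP5MC2 share was 48.5%, 48.9% and 48.4% against 50.3%, 51.2% and 49.3% (1.67 points, exact permutation p = 0.1, adjusted p = 0.2). The ATP5MC3 share overlapped between groups (0.03 points, exact permutation p = 0.9, adjusted p = 0.9).

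Of the 4 peripheral stalk subunits 1 was called, and of the 5 membrane subunits 1. ATP5PB of the peripheral stalk was at 231.32, 229.28 and 230.15 TPM in vehicle and 203.13, 208.51 and 202.12 TPM in PDBAG1 libraries (-0.17 ± 0.04, limma adjusted p = 0.0025). Its groups were separate by more than 20 TPM. The other stalk subunits ATP5PD, ATP5PF and ATP5PO were at -0.06, -0.10 and -0.07, and after trend removal at 0.11 (called higher), 0.09 and 0.08. ATP5MG was the membrane subunit that passed (-0.12, limma adjusted p = 0.0249), a call lost in 6 of the 13 alternatives, among them leaving out vehicle replicate 2, vehicle replicate 3 or PDBAG1 replicate 3. ATP5ME, ATP5MF, ATP5MPL and ATP5MD were at -0.15, -0.09, -0.09 and -0.05. After trend removal ATP5ME was at -0.03, and ATP5MG, ATP5MF, ATP5MPL and ATP5MD lay above 0, at 0.03, 0.05, 0.08 and 0.11.

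Of the 2 assembly factors of the F1 head, ATPAF1, which binds the beta subunit, was at 38.75, 42.00 and 39.74 TPM in vehicle and 35.65, 33.16 and 34.06 TPM in PDBAG1 libraries (-0.22 ± 0.06, limma adjusted p = 0.0067). ATPAF2, which binds the alpha subunit, was at 16.95, 15.21 and 16.83 against 13.80, 14.39 and 14.76 TPM. It was separate between groups and did not pass (-0.18 ± 0.07, limma adjusted p = 0.062). The inhibitor ATP5IF1, which stops the enzyme from breaking down ATP, was at -0.07 (95% interval -0.16 to 0.02).

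**Figure D5:**
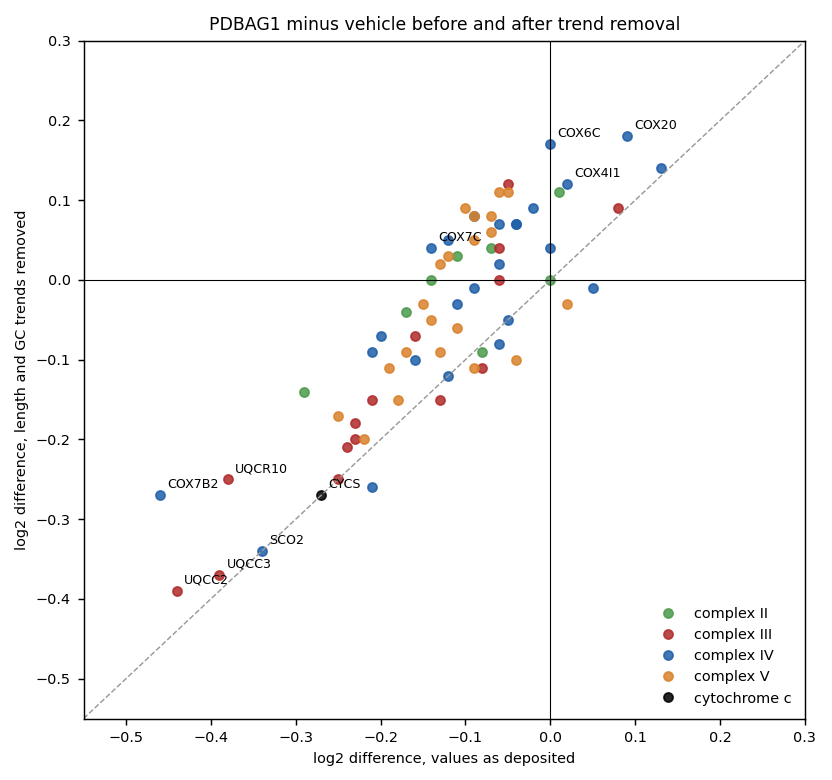
Log2 difference (PDBAG1 minus vehicle) of each tested member after removal of the transcript length and GC trends, against the same difference as deposited, coloured by complex, with the dashed line marking equality. UQCC2, UQCC3, SCO2 and CYCS stay near the line, whereas COX6C, COX4I1 and COX7C move above 0.

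Further genes of the pathway outside the symbol list were read from a separate list of 31 genes, of which 29 were tested. Of these 10 were lower, 1 was higher and the median log2 difference was -0.09, with 6 lower without vehicle replicate 3. After trend removal 7 were lower and 2 higher, with a median of -0.05, where 15.4% of all genes were lower and 23.3% higher. The cytochrome c oxidase assembly genes COA4 (278.52, 280.36 and 286.05 TPM in vehicle, 237.14, 223.23 and 224.18 TPM in PDBAG1 libraries) and COA3 (161.01, 153.34 and 162.55 against 133.64, 119.28 and 122.57 TPM) were lower without overlap. Their log2 differences were -0.30 (limma adjusted p = 4.33e-05) and -0.34 (limma adjusted p = 0.000104), and HCCS, given above with CYCS, was the third by p. LONP1, the matrix protease that degrades damaged and unassembled proteins, was the one higher gene, at 87.11, 86.45 and 84.61 against 104.06, 105.95 and 105.52 TPM (0.29 ± 0.04, limma adjusted p = 0.000131).

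Other mitochondrial and ribosomal gene sets held lower genes too, where 15.9% of all genes tested were lower as deposited and 15.4% after trend removal. Of 37 complex I subunits 14 were lower (37.8%), with a median log2 difference of -0.11, though 8 remained without vehicle replicate 2 and 9 without PDBAG1 replicate 2. After trend removal 10 were lower and 1 higher, with a median of -0.02. Of 78 mitochondrial ribosomal protein genes 50 were lower (64.1%, median -0.18), and 35 after trend removal (median -0.11, with 2 higher). Of 77 cytosolic ribosomal protein genes 45 were lower (58.4%, median -0.11). That count was 20 without vehicle replicate 2, 20 without vehicle replicate 3, 27 without PDBAG1 replicate 3, 21 under median-of-ratios scaling and 8 after trend removal (median -0.01, with 4 higher). No test compared these sets with the members.

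How reads were assigned limits some of these values. The exons of 24 members overlap those of another annotated gene, among them 10 of the 28 lower members (SDHD, UQCR10, UQCR11, UQCC3, COX11, COX16, SCO1, SCO2, ATP5F1E and ATP5MG), and whether reads were counted by strand was not stated. ATP5MF shares exons with ATP5MF-PTCD1, and many of these genes have processed pseudogenes with near-identical sequence.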

How the data were processed

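Total RNA from MDA-MB-231 cells was extracted with TRIzol, and mRNA libraries were sequenced on the BGISEQ-500 platform (the labels name Illumina library protocols). Clean reads were mapped with HISAT2 (2.0.4 in the submitters' processing notes, which also name Bowtie2 2.2.5 and RSEM 1.2.12) to GRCh38. The values the authors deposited are TPM, 1 column per library, whereas the methods name FPKM, and the annotation release and the step to TPM were not given in the sources used here. Each of the 6 libraries has the same sum over the genes listed.

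Of the deposited TPM, genes that reached 1 in 3 libraries entered a limma 3.58.1 fit in R 4.3.3 (lmFit, eBayes with trend) on log2(TPM + 1), a scale that understates the change of low genes. A call needed an adjusted p under 0.05 (Benjamini-Hochberg, over all genes in the fit). The script was tested on simulated data. Isoform shares were compared with an exact permutation test, 2-sided. Errors of log2 differences are SE, and intervals are 95%. Gene positions, transcript length and GC content came from GENCODE v44 (17212 genes matched by Ensembl identifier), and promoter windows from RefSeq, where the start is the first listed and printed bases lie upstream of the GENCODE gene too.

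The members and gene lists were chosen with earlier results of these data known. Named genes were SDHB, UQCRC2, COX4I1 and ATP5F1A, the isoform genes, in each complex and class up to 2 lower and 2 higher members with the lowest p and the member with the highest mean TPM, and up to 3 lower and 3 higher of the other pathway genes. Further members were named to account for each complex, with their values seen. Alternatives were no filter, 1 TPM in every library, 0.1 as pseudocount, a block for the replicate number, median-of-ratios scaling, quantile normalization, removal of length and GC trends, each library left out, and the 1.5-fold limit, which changes only which calls count and is not among the 13 alternatives counted in the text.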

Additional observations from a re-analysis of the deposited data

How the results depend on the processing

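The count of 28 lower members and the absence of higher ones kept within 1.5 times under the filters, the pseudocount of 0.1, the replicate block (25 lower, 3951 genes called) and both scalings (30 and 33 lower). Leaving out each library gave 20 to 32 lower members, a member median of -0.131 to -0.095 and a subunit median of -0.131 to -0.089. Applied to log2(TPM + 1), the 1.5-fold limit left 420 genes called and 0 lower members, although COX7B2 was at -0.7 with the pseudocount of 0.1. Median-of-ratios scaling moved the medians to -0.151 (members), -0.135 (subunits) and -0.185 (assembly factors) and turned COX4I1 (-0.022) and SDHAF2 (-0.031), while quantile normalization moved the assembly factors to -0.194. Removal of length and GC trends gave 15 lower and 6 higher members, medians of -0.028, -0.003 and -0.096 in the same order, turned 23 members from below to above 0, and among the named genes turned COX17 (0.053), COX6A1 (0.091), COX6B1 (0.072), COX7A2 (0.079), COX7C (0.037) and UQCRC2 (0.042). The causes were not tested. With a library left out, signs turned among the named genes for SDHAF2 (-0.021 to 0.051, below 0 without vehicle replicate 1 or PDBAG1 replicate 1), COX6B1 (-0.084 to 0.0041, above 0 without vehicle replicate 3), COX4I1 (-0.0025 to 0.053, below 0 without PDBAG1 replicate 1) and COX6A1 (-0.066 to 0.022, above 0 without PDBAG1 replicate 3). Other members that turned included SDHA, COX5B, COX18, COX19, SURF1, ATP5F1D, ATP5MD and ATP5MF-PTCD1. The share differences ranged from -0.00753 to 0.053 points for COX6B2 and from -0.139 to 0.163 points for ATP5MC3. Over 34 named genes and 13 alternatives, 403 of 438 values kept direction and side of the threshold, 13 lost the call, 9 gained it and 13 changed sign. Libraries with the same replicate number did not deviate together (correlations -0.207, 0.0118 and -0.0785), so the numbers are not taken as pairs. TPM gives no depth, so precision rests on 3 libraries per group.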

Other observations

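Complex III assembly factors UQCC4, UQCC5 and UQCC6 are listed under the older symbols C16orf91, SMIM4 and C12orf73, which the symbol list does not take, and they did not follow UQCC1 to UQCC3 past the threshold. C16orf91 was at 20.95, 25.12 and 25.50 TPM in vehicle and 22.89, 18.90 and 22.46 TPM in PDBAG1 libraries (log2 difference -0.15, limma adjusted p = 0.2). SMIM4 was at 73.66, 66.94 and 60.00 against 68.34, 66.26 and 66.71 TPM (0.01, limma adjusted p = 0.92). C12orf73 was at 14.57, 17.36 and 16.68 against 15.02, 12.82 and 15.24 TPM (-0.16, limma adjusted p = 0.148). The groups overlapped for all 3, which were looked up after the values of the other UQCC genes were seen.

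Outside the symbol list, some factors that act on mtDNA-encoded subunits passed and others did not. Of the 29 genes tested on the separate list, 10 were lower (34.5%, against 15.9% of all genes tested) and 18 did not pass. TACO1, which activates translation of MT-CO1, was at 62.58, 59.22 and 58.77 TPM in vehicle and 50.40, 53.23 and 47.87 TPM in PDBAG1 libraries (-0.25, limma adjusted p = 0.00249). TMEM177, which acts with COX20 on MT-CO2, was at 13.91, 16.72 and 14.32 against 11.67, 10.18 and 11.17 TPM (-0.41, limma adjusted p = 0.00177). OXA1L, the inner membrane insertase, overlapped between groups (-0.03, 95% interval -0.11 to 0.06). On the same list LRPPRC (-0.09), COA1 (-0.07), SMIM20 (-0.07) and CMC1 (0.00) did not pass either. These were named with their values seen.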
